A study of Mus musculus with 12 samples.

Results

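Glutamate receptors and the proteins that assemble, tune and anchor them were measured in mouse retina with oxygen-induced retinopathy (OIR) and in normoxic retina. The members were 39 genes chosen by name: 4 AMPA receptor subunits, 4 kainate receptor subunits, 1 delta receptor, 7 NMDA receptor subunits, 6 metabotropic receptors, and 17 auxiliary subunits and scaffold proteins. Each of the 39 names had 1 entry among the 57073 gene models of the deposited table, and all 39 passed the filter on low counts, as did 18275 gene models in all. Both groups were whole retinas of C57BL/6 mice at postnatal day 17, the OIR group labelled with 75% oxygen and the other with normoxic air, with 6 libraries of poly-A RNA each. The labels do not give the days of oxygen exposure. Whether each library is a separate animal is not stated either, so p-values reflect only the library-to-library spread, part or all of which may be technical.

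Glutamate is the transmitter that photoreceptors and bipolar cells release. OFF bipolar cells, horizontal cells, amacrine cells and ganglion cells sense it through ionotropic AMPA and kainate receptors, which are tetrameric cation channels. Ganglion cells and many amacrine cells add NMDA receptors, which open only when glutamate and glycine or D-serine are bound and depolarisation has lifted a magnesium block. Metabotropic receptors signal through G proteins, and ON bipolar cells read photoreceptor glutamate through Grm6. Auxiliary subunits carry AMPA and kainate receptors to the surface and set their gating, and membrane-associated guanylate kinases hold receptors at the postsynaptic density. In the OIR model, high oxygen prunes the retinal capillaries of pups, and the retina becomes hypoxic after the return to room air.

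Most of these genes, which were chosen with earlier results of these data known, were lower in OIR retina. Shares of all tested genes are given for scale, and the list itself was not tested. In edgeR's quasi-likelihood test with Benjamini-Hochberg adjustment over all tested genes, 31 of the 39 (79.5%) fell at an adjusted p under 0.05 and 0 rose, while 14.8% of all tested genes were called lower in OIR and 16.2% were called higher. DESeq2, which called 32.7% of tested genes in either direction, 15.9% lower and 16.9% higher, had 32 members lower and 0 higher. With limma on log2(FPKM + 1), 30 members were lower and 0 higher. That fit called 5525 genes in either direction, and its share in each direction was not computed. At an unadjusted p under 0.05, edgeR and DESeq2 each had 1 higher member, Grik3, and limma had 0. Shares of all genes at that threshold were not computed either. The log2 fold change, OIR over normoxic, was negative for 36 of 39 members, with a median of -0.41 and a range of -0.89 to 0.22, beside a median of -0.01 over all tested genes. In 22 members every OIR library was below every normoxic library, which held for 6.60% of tested genes. Since whole retina was sequenced, fewer cells of a type and less RNA per cell cannot be told apart in these values.

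**Figure D1:**
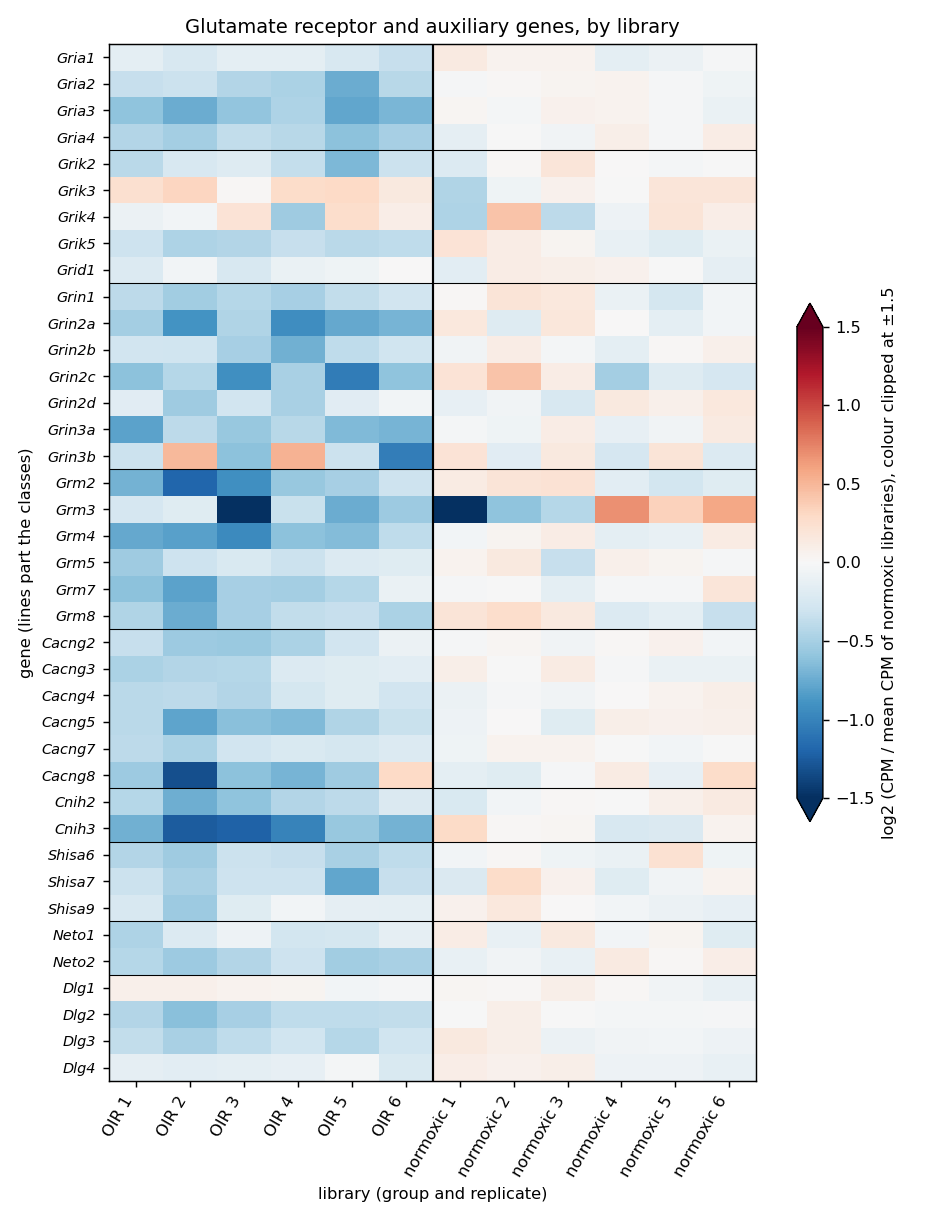
Level of the 39 genes (down the page, in classes parted by lines) in the 6 OIR and the 6 normoxic libraries, coloured by the log2 ratio of its library-scaled count (CPM, defined below) to the normoxic mean; the colour scale is clipped at 1.5 in both directions, which Grm3 passes on the low side. The blue of the OIR columns runs through most genes, while Grik3 is white to red there.

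**Figure D2:**
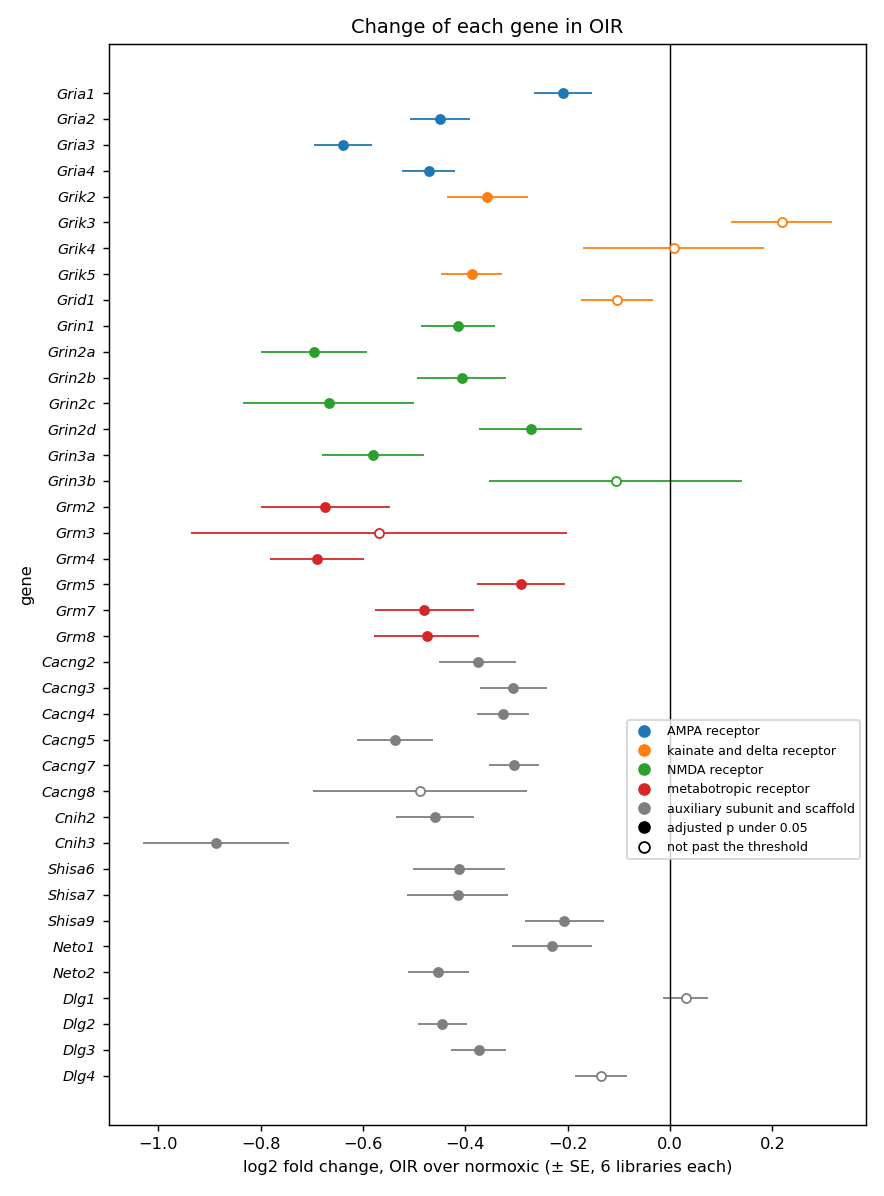
Log2 fold change of each gene in OIR over normoxic retina (points) with its standard error (bars), 6 libraries each. Filled points mark the 31 genes with an adjusted p under 0.05, all left of 0, and open points the 8 others.

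Total counts were 17366045 to 21594618 in OIR libraries and 17361979 to 19390627 in normoxic libraries. The levels below are CPM, which put all libraries on 1 total after edgeR's TMM scaling. Libraries of a group differed beyond sampling noise, so none was counted as the same library sequenced again. The chi-square per degree of freedom was 3.99 to 12.4 between OIR and 3.06 to 15.6 between normoxic libraries. These values cannot show whether libraries came from separate animals. Replicates 1 to 3 and 4 to 6 stood apart in normoxic retina. The chi-square per degree of freedom there was 3.06 to 4.11 within these sets and 12.2 to 15.6 across them. In OIR retina the sets parted less clearly. Replicates 3 and 4 had 4.81, below the 5.125 to 5.548 among replicates 1 to 3. Replicate 6 had 7.67 to 12.4 against every other OIR library. In normoxic retina these sets did not overlap in 38.6% of tested genes and in 15 of the 39 members, and in OIR retina they did not overlap in 19.4% of tested genes and in 8 members. Cacng3, Dlg2, Grm2 and Shisa9 were higher in replicates 1 to 3 in normoxic retina and lower there in OIR retina. Cacng4 was lower in both. The labels name no batch for these sets, so the comparison was repeated within each.

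The start regions of the genes that fell with the smallest adjusted p in each receptor class, among members with an entry in the RefSeq promoter table, are shown because genes of every receptor class fell. Each runs from 250 bases before to 50 bases after the start on build GRCm38.p6, 5′ to 3′ on the gene's strand. They are Gria4 (chr9:4796185-4796484, minus strand), Grik5 (chr7:25072320-25072619, minus strand), Grin1 (chr2:25319138-25319437, minus strand) and Grm2 (chr9:106656060-106656359, minus strand). Capitals mark matches, on either strand, to the GC box GGGCGG or to ACGTG, a form of the core of the hypoxia response element. They also mark CAGCACC and GGACAGC, parts of the left and right arms of the RE1 element that the neuronal repressor REST binds. Other forms of the hypoxia core, such as GCGTG, were not searched.
Gria4: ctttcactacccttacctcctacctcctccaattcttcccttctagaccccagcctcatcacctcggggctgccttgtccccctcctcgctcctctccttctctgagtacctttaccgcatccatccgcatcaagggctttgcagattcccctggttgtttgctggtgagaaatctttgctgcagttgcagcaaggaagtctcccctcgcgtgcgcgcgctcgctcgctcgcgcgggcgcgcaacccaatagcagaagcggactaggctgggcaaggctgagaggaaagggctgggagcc
Grik5: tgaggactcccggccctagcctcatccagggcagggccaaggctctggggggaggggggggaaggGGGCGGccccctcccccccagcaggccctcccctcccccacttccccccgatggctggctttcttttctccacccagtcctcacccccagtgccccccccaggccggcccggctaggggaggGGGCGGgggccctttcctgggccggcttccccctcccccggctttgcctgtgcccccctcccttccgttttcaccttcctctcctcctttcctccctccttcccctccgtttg
Grin1: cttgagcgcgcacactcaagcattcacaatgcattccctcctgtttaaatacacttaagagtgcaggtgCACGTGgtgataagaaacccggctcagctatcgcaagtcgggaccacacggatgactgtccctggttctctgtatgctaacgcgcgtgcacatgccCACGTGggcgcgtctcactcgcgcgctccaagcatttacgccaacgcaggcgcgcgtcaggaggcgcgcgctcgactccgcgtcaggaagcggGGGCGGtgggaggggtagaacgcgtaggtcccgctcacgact
Grm2: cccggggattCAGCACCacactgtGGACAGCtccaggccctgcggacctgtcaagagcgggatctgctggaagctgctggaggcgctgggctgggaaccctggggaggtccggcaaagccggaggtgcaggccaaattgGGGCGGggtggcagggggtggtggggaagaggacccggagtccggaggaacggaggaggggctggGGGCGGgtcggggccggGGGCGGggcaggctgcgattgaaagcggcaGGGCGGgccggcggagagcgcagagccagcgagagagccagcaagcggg
Gria4 held none of these letters. Grik5 held 2 GC boxes, and Grin1 held 1 GC box and 4 matches to ACGTG, which came from palindromes read once on each strand. Grm2 held 4 GC boxes and 1 match to each RE1 arm.

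RefSeq listed 40 start regions for 27 of the 39 members. A GC box was found in 20 of these 40 (50%), against 35.7% of all 32851 regions of the same length. ACGTG was in 5 of 40 (12.5%), from Cnih3, Dlg1, Grin1 and Grm8, against 19.6% of all regions. CAGCACC was in 2 of 40 (5%), from Dlg4 and Grm2, against 7.14%, and GGACAGC was in 2 of 40 (5%), from Gria2 and Grm2, against 6.56%. Matches on both strands were counted, no match of 1 motif overlapped that of another in the 4 regions shown, and a match describes letters only. The members' regions had a median GC content of 61% and a median of 13.5 CpG dinucleotides, against 52.7% GC and 7 CpG over all regions.

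All 4 AMPA receptor genes fell, with a median log2 fold change of -0.46, and in 3 of them the groups did not overlap. For each gene, the CPM of the lowest, the median and the highest of the 6 libraries are given in that order. Gria3 (chromosome X, 40489731 to 40767478, GRCm39 as for the other gene positions), which encodes GluA3, measured 35.2, 38.8 and 43.9 CPM in OIR retina, against 56.3, 60.8 and 63.1 CPM in normoxic retina. Every OIR library was thus under the lowest normoxic one, and Gria3 fell by 0.64 ± 0.06 on the log2 scale (SE, adjusted p = 1.26e-07), a level 35.8% lower. Gria4 (chromosome 9, 4417896 to 4796234), the GluA4 subunit of fast-gating channels, measured 85.0, 94.4 and 101 CPM in OIR retina, against 119, 129 and 141 CPM in normoxic retina. Gria4 fell by 0.47 ± 0.05 (SE, adjusted p = 1.65e-06) with no overlap. Gria2, whose edited GluA2 subunit keeps AMPA channels impermeable to calcium, measured 102, 127 and 136 CPM in OIR retina, against 163, 171 and 177 CPM in normoxic retina. Gria2 fell by 0.45 ± 0.06 (SE, adjusted p = 1.11e-05), again without overlap. Gria1, which encodes GluA1, measured 44.2, 49.3 and 51.0 CPM in OIR retina, against 50.8, 56.96 and 61.6 CPM in normoxic retina. The highest OIR library passed the lowest normoxic one, and Gria1 fell by 0.21 ± 0.06 (SE, adjusted p = 0.00819).

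Levels of different genes were set side by side as FPKM, which divides by gene length. Summed AMPA receptor FPKM was 34.9 ± 2.25 in OIR retina and 47.3 ± 0.99 in normoxic retina (SD, n = 6 each), a ratio of 0.74. Gria4 made up 42.7% of this sum in OIR and 43.9% in normoxic retina, and Gria2 made up 23.0% in OIR and 23.3% in normoxic retina. Gria1 made up 23.1% in OIR and 19.8% in normoxic retina, and Gria3 made up 11.2% in OIR and 13.0% in normoxic retina. All of these shares overlapped between the groups. Set against each other inside each library, Gria3 counts were 0.738 to 0.864 times those of Gria1 in OIR retina and 1.00 to 1.23 times in normoxic retina, with no overlap. This ratio does not depend on the scaling between libraries, and no test was run on it. It was not planned. It sets the AMPA gene that fell most against the one that fell least, so a gap adds nothing to their fold changes.

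Of the 5 kainate and delta receptor genes, Grik2 and Grik5 fell, Grik3, Grik4 and Grid1 did not pass the test, and the median log2 fold change was -0.10. Grik5 (chromosome 7, 24709274 to 24771771) encodes GluK5, a high-affinity subunit that works only beside GluK1 to GluK3. It measured 153, 161 and 169.9 CPM in OIR retina, against 186, 207 and 243 CPM in normoxic retina, with every OIR library lower. Grik5 fell by 0.39 ± 0.06 on the log2 scale (SE, adjusted p = 7.1e-05). Grik2, the GluK2 subunit, measured 21.1, 26.7 and 29.5 CPM in OIR retina, against 29.4, 33.8 and 38.4 CPM in normoxic retina. The highest OIR library just passed the lowest normoxic one, and Grik2 fell by 0.36 ± 0.08 (SE, adjusted p = 0.00191).

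Grik3, the GluK3 subunit of kainate receptors with low affinity for glutamate, was the member with the most positive estimate. It measured 15.7, 18.5 and 19.3 CPM in OIR retina, against 11.4, 15.8 and 17.6 CPM in normoxic retina, and 4 of the 6 OIR libraries lay above all normoxic ones. Its log2 fold change of 0.22 ± 0.10 did not pass (SE, adjusted p = 0.105). Within replicates 1 to 3 it passed, at 0.33 (adjusted p = 0.0439), and within replicates 4 to 6 it did not, at 0.12 (adjusted p = 0.51). Grik4, which encodes GluK4, had a log2 fold change of 0.01 ± 0.18 (adjusted p = 0.982), and its 95% interval ran from -0.36 to 0.38. Grid1 encodes GluD1, which binds cerebellins across the synapse, and had -0.10 ± 0.07 (adjusted p = 0.29, 95% interval -0.25 to 0.04). Grik5 was the most abundant kainate transcript per length. It held 86.9% in OIR and 89.0% in normoxic retina of the summed FPKM of Grik2 to Grik5, and with Grik1, which is not among the 39, added to the sum, 64.9% in OIR and 64.1% in normoxic retina. The share of Grik3 in the sum with Grik1 was 3.63% to 4.61% in OIR libraries and 1.81% to 3.43% in normoxic libraries. Without Grik1 it was 5.01% to 6.22% in OIR libraries and 2.48% to 4.75% in normoxic libraries, and the groups did not overlap in either sum. Both sums were mostly Grik5, which fell, so a higher share does not show that Grik3 itself rose. Counts of Grik2 were 1.11 to 1.88 times those of Grik3 in OIR retina and 1.89 to 2.59 times in normoxic retina. This unplanned ratio sets a gene that fell against the member with the most positive estimate, so a gap adds nothing to their fold changes. The ratio was not tested.

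Of the 7 NMDA receptor genes, 6 fell and 1 did not pass, with a median log2 fold change of -0.42. Grin1 (chromosome 2, 25181193 to 25209199) encodes GluN1, the glycine-binding subunit that every NMDA receptor needs. It measured 30.9, 33.5 and 36.4 CPM in OIR retina, against 37.1, 44.1 and 50.7 CPM in normoxic retina, and the groups stood apart. Grin1 fell by 0.42 ± 0.07 on the log2 scale (SE, adjusted p = 0.000224). Grin2a (chromosome 16, 9385762 to 9813424), the glutamate-binding GluN2A subunit that becomes more abundant as synapses mature, measured 8.05, 9.25 and 11.3 CPM in OIR retina, against 13.4, 15.2 and 17.3 CPM in normoxic retina. With no overlap, Grin2a fell by 0.70 ± 0.10 (SE, adjusted p = 4.81e-05), a level 38.3% lower. Grin2b, the GluN2B subunit that predominates early in development, measured 10.3, 13.4 and 13.9 CPM in OIR retina, against 15.2, 16.9 and 18.3 CPM in normoxic retina. Grin2b fell by 0.41 ± 0.09 (SE, adjusted p = 0.00146), also without overlap. The ratio of Grin2a to Grin2b counts was 0.60 to 0.94 in OIR and 0.73 to 1.05 in normoxic libraries, and the groups overlapped.

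Grin2c, the GluN2C subunit with weak magnesium block, measured 2.90, 3.94 and 4.46 CPM in OIR retina, against 4.21, 5.89 and 8.12 CPM in normoxic retina. Grin2c fell by 0.67 ± 0.17 (SE, adjusted p = 0.00504) with a small overlap. Grin3a, the glycine-binding GluN3A subunit that lowers calcium entry, measured 6.28, 7.18 and 8.35 CPM in OIR retina, against 10.1, 10.7 and 12.1 CPM in normoxic retina. All OIR libraries were below the normoxic ones, and Grin3a fell by 0.58 ± 0.10 (SE, adjusted p = 0.000185). Grin2d, the slowly deactivating GluN2D subunit, measured 11.0, 13.6 and 15.5 CPM in OIR retina, against 13.5, 16.1 and 17.8 CPM in normoxic retina. Grin2d fell by 0.27 ± 0.10 (SE, adjusted p = 0.0463) with overlapping groups. That call was lost without any 1 of OIR replicates 2, 3 or 4 or normoxic replicates 2, 4, 5 or 6 (adjusted p 0.0568 to 0.104). Grin2d also shares 5607 bases with Kdelr1 on the opposite strand, which had 14358 counts beside 3235 of Grin2d. Grin3b, the GluN3B subunit, did not pass, at -0.11 ± 0.25 (adjusted p = 0.79, 95% interval -0.63 to 0.41), and shares 2243 bases with Tmem259, which had 49958 counts beside 494 of Grin3b. Grin1 shares 7706 bases with its antisense gene Grin1os, which had 478 counts beside 8605 of Grin1. No source used here gives the strand setting of the counting, so reads from these partners cannot be told apart.

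Summed NMDA receptor FPKM was 8.44 ± 0.15 in OIR retina and 11.4 ± 0.64 in normoxic retina (SD, n = 6 each), a ratio of 0.74. Among the 4 GluN2 subunits, Grin2d made up 52.4% of the FPKM in OIR and 46.8% in normoxic retina. Grin2c made up 20% in OIR and 23.2% in normoxic retina, Grin2a 14.0% in OIR and 16.8% in normoxic retina, and Grin2b 13.6% in OIR and 13.3% in normoxic retina. The groups overlapped in all 4 shares. These shares depend on the gene lengths the authors used, for example 24842 bases for Grin2b and 6658 for Grin2d.

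**Figure D3:**
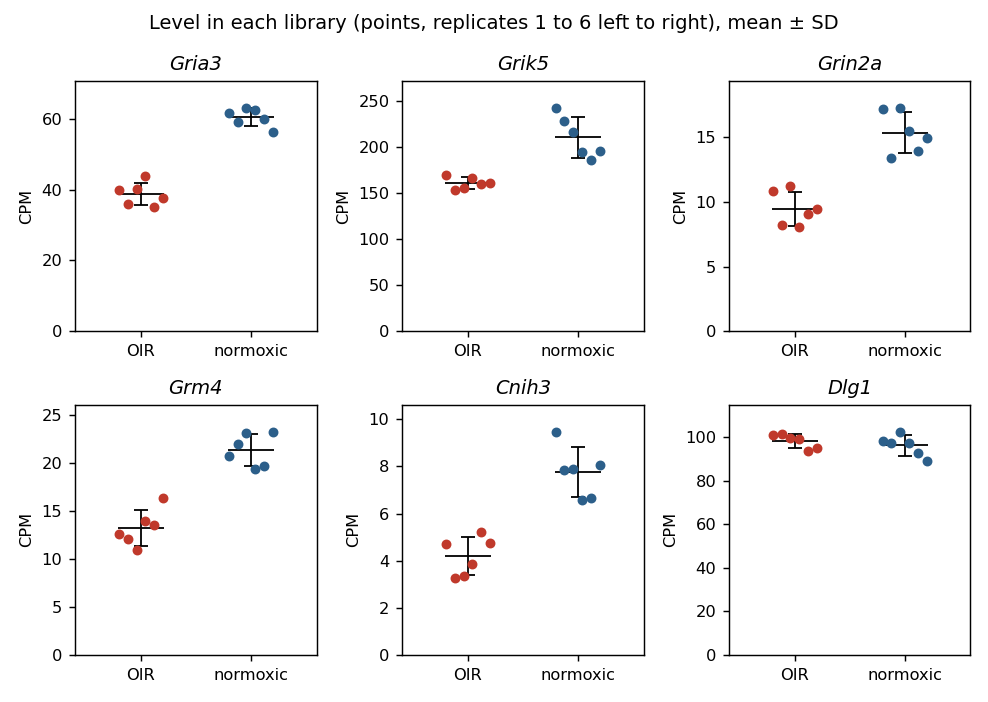
CPM of 6 genes in each of the 6 OIR (left) and 6 normoxic (right) libraries, with the mean and SD of the group; axes start at 0. Gria3, Grik5, Grin2a, Grm4 and Cnih3 do not overlap between the groups, and Dlg1 does.

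Of the 6 metabotropic receptor genes, 5 fell and 1 did not pass, with a median log2 fold change of -0.52. Grm4 (chromosome 17, 27641361 to 27740377), Grm7 and Grm8 encode group III receptors, which act through inhibitory G proteins and mostly sit on presynaptic terminals. Grm4 measured 11.0, 13.1 and 16.4 CPM in OIR retina, against 19.4, 21.3 and 23.3 CPM in normoxic retina, and the groups stood apart. Grm4 fell by 0.69 ± 0.09 on the log2 scale (SE, adjusted p = 1.53e-05), a level 38.0% lower. Grm7 measured 12.2, 15.05 and 19.9 CPM in OIR retina, against 19.3, 21.1 and 24.3 CPM in normoxic retina. Grm7 fell by 0.48 ± 0.10 (SE, adjusted p = 0.00094), with the highest OIR library just past the lowest normoxic one, and shares 336 bases with the opposite-strand Gm20387. Grm8 measured 16.5, 20.1 and 21.7 CPM in OIR retina, against 21.8, 27.8 and 33.1 CPM in normoxic retina. Grm8 fell by 0.48 ± 0.10 (SE, adjusted p = 0.0015) without overlap.

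Grm2 (chromosome 9, 106520294 to 106533281), a group II receptor that also lowers cyclic AMP, measured 13.1, 19.2 and 24.2 CPM in OIR retina, against 24.7, 29.8 and 34.7 CPM in normoxic retina. Grm2 fell by 0.67 ± 0.13 (SE, adjusted p = 0.000462), and every OIR library was below every normoxic one. Its log2 fold change was -1.11 within replicates 1 to 3 and -0.25 within replicates 4 to 6 (adjusted p = 0.0884). Grm5, a group I receptor coupled to phospholipase C, measured 14.9, 17.9 and 19.0 CPM in OIR retina, against 16.9, 22.3 and 23.9 CPM in normoxic retina. Grm5 fell by 0.29 ± 0.09 (SE, adjusted p = 0.0146) with overlapping groups. Grm3, the other group II receptor, did not pass, at -0.57 ± 0.37 (adjusted p = 0.267), and its sets gave opposite signs, 0.28 within replicates 1 to 3 (adjusted p = 0.671) and -1.07 within 4 to 6 (adjusted p = 0.0112). Normoxic libraries 1 to 3 had at most 1.598 CPM of Grm3 and normoxic libraries 4 to 6 at least 2.72 CPM. The summed FPKM of these 6 genes was 12.8 ± 1.504 in OIR retina and 19.0 ± 1.08 in normoxic retina (SD, n = 6 each), a ratio of 0.67.

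TARPs, the stargazin family, are auxiliary subunits of AMPA receptors, and 5 of 6 fell with a median log2 fold change of -0.35. Cacng7, a type II TARP and the main one here per length, measured 152, 175 and 182 CPM in OIR retina, against 202, 210.1 and 219.7 CPM in normoxic retina. Cacng7 fell by 0.30 ± 0.05 on the log2 scale (SE, adjusted p = 9.17e-05) without overlap, and made up 55.3% of TARP FPKM in OIR and 54.2% in normoxic retina. Cacng5, the other type II TARP, measured 32.8, 39.1 and 45.0 CPM in OIR retina, against 49.9, 58.2 and 60.2 CPM in normoxic retina. Cacng5 fell by 0.54 ± 0.07 (SE, adjusted p = 2.14e-05), with all OIR libraries lower. Cacng4, which encodes the TARP gamma-4, measured 71.1, 76.2 and 84.8 CPM in OIR retina, against 90.7, 96.1 and 103 CPM in normoxic retina. Cacng4 fell by 0.33 ± 0.05 (SE, adjusted p = 7.92e-05), and again no libraries overlapped. Cacng3, which encodes gamma-3, measured 48.2, 53.8 and 60.01 CPM in OIR retina, against 62.3, 66.1 and 72.5 CPM in normoxic retina. Cacng3 fell by 0.31 ± 0.07 (SE, adjusted p = 0.00149) without overlap. Cacng2, stargazin itself, measured 21.4, 23.7 and 29.7 CPM in OIR retina, against 30.5, 31.5 and 32.8 CPM in normoxic retina. Cacng2 fell by 0.38 ± 0.07 (SE, adjusted p = 0.000789), likewise without overlap. Cacng8, gamma-8, did not pass at -0.49 ± 0.21 (adjusted p = 0.0862), and passed at -0.71 (adjusted p = 0.00463) without OIR replicate 6, its highest OIR library.

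Cornichons, which slow AMPA receptor gating, held the member with the most negative fold change. Cnih3 (chromosome 1, 181180193 to 181288206) measured 3.26, 4.29 and 5.22 CPM in OIR retina, against 6.57, 7.86 and 9.48 CPM in normoxic retina, and no OIR library reached the normoxic range. Cnih3 fell by 0.89 ± 0.14 on the log2 scale (SE, adjusted p = 0.000101), a level 46.0% lower. Cnih2, its more abundant paralog, measured 48.3, 59.2 and 69.0 CPM in OIR retina, against 68.4, 80.4 and 87.9 CPM in normoxic retina. Cnih2 fell by 0.46 ± 0.08 (SE, adjusted p = 0.000141) with a narrow overlap. It shares 14 bases with Yif1a on the opposite strand. Counts of Cnih3 were 0.064 to 0.086 times those of Cnih2 in OIR libraries and 0.079 to 0.139 times in normoxic libraries, with overlap.

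Shisa6, Shisa7 and Shisa9 encode CKAMP proteins that modulate AMPA receptor desensitisation, and all 3 fell. Shisa6 measured 7.95, 8.71 and 9.23 CPM in OIR retina, against 10.8, 11.1 and 13.5 CPM in normoxic retina. Shisa6 fell by 0.41 ± 0.09 (SE, adjusted p = 0.0016) without overlap, and shares 89513 bases with the opposite-strand Gm12296, with 372 counts beside 2237 of Shisa6. Shisa7, which has also been found with GABA-A receptors, measured 11.7, 15.9 and 16.2 CPM in OIR retina, against 17.2, 20.1 and 24.2 CPM in normoxic retina. Shisa7 fell by 0.42 ± 0.10 (SE, adjusted p = 0.00327), with every OIR library lower. Shisa9 measured 21.8, 28.6 and 30.9 CPM in OIR retina, against 29.3, 31.5 and 35.8 CPM in normoxic retina, with overlap. Shisa9 fell by 0.21 ± 0.08 (SE, adjusted p = 0.0497), and the call was lost without any 1 of OIR replicates 1, 2, 3, 5 or 6 or normoxic replicates 1 to 4 (adjusted p 0.0515 to 0.116).

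Neto1 and Neto2 encode CUB-domain auxiliary subunits of kainate receptors, and Neto1 also binds NMDA receptors. Neto2 measured 31.2, 33.1 and 36.6 CPM in OIR retina, against 42.2, 45.2 and 49.9 CPM in normoxic retina, and the groups stood apart. Neto2 fell by 0.45 ± 0.06 on the log2 scale (SE, adjusted p = 1.18e-05). Neto1 measured 17.7, 20.8 and 23.1 CPM in OIR retina, against 21.5, 24.4 and 27.2 CPM in normoxic retina, with overlap. Neto1 fell by 0.23 ± 0.08 (SE, adjusted p = 0.0309), a call lost without any 1 of OIR replicates 1, 4 or 5 or normoxic replicates 1 or 3 (adjusted p 0.0562 to 0.0757).

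Of the 4 membrane-associated guanylate kinase genes, Dlg2 and Dlg3 fell, and Dlg1 and Dlg4 did not pass. Dlg2 (chromosome 7, 90125880 to 92098455) measured 166, 192 and 198 CPM in OIR retina, against 249.98, 253 and 272 CPM in normoxic retina, and no libraries overlapped. Dlg2 fell by 0.44 ± 0.05 on the log2 scale (SE, adjusted p = 1.18e-06). Dlg3, the X-linked SAP102 scaffold that carries NMDA receptors early in development, measured 43.1, 46.8 and 49.4 CPM in OIR retina, against 57.1, 58.8 and 67.2 CPM in normoxic retina. Dlg3 fell by 0.37 ± 0.05 (SE, adjusted p = 3.68e-05) without overlap. Dlg1, the SAP97 scaffold found in many cell types, measured 93.7, 99.3 and 101 CPM in OIR retina, against 88.9, 97.5 and 103 CPM in normoxic retina. Its log2 fold change was 0.03 ± 0.04 (adjusted p = 0.646), and its 95% interval of -0.06 to 0.12 did not reach the estimates of Dlg2 and Dlg3. Counts of Dlg2 were 1.64 to 2.09 times those of Dlg1 in OIR libraries and 2.48 to 2.83 times in normoxic libraries, without overlap. Counts of Dlg3 were 0.426 to 0.517 times those of Dlg1 in OIR libraries and 0.556 to 0.683 times in normoxic libraries, also without overlap. Counts of Dlg4 were 10.9 to 12.9 times those of Dlg1 in OIR libraries and 12.0 to 13.4 times in normoxic libraries, with overlap. These ratios to Dlg1 were not planned or tested. Those of Dlg2 and Dlg3 set genes that fell against Dlg1, which did not pass, so their gaps add nothing to the fold changes.

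Dlg4, which encodes PSD-95, was the most abundant member, with 75.4% of the FPKM of the 4 kinases in OIR and 73.4% in normoxic retina. It measured 1049, 1119 and 1210.2 CPM in OIR retina, against 1140.4, 1229.9 and 1318 CPM in normoxic retina, with overlap. Its log2 fold change of -0.13 ± 0.05 narrowly missed the threshold (SE, adjusted p = 0.0501). A block for the 2 replicate sets brought it past, at -0.13 (adjusted p = 0.0177). Within replicates 1 to 3 alone it was -0.23 (adjusted p = 0.000116) and within 4 to 6 it was -0.04 (adjusted p = 0.70). Dlg4 was called lower by DESeq2 (adjusted p = 0.0216), and by edgeR without any 1 of OIR replicate 5 or normoxic replicates 4, 5 or 6 (adjusted p 0.0259 to 0.0403).

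Within replicates 1 to 3, 32 members were lower and 1 was higher, beside 18.6% and 20.3% of tested genes. Within replicates 4 to 6, 22 were lower and 0 were higher in edgeR's test, beside 8.36% and 11.6% of tested genes. Both sets called 21 members lower, 11 were called only in the first set and 1, Grm3, only in the second. Of the members called lower over all libraries, Gria1, Grin2c, Grin2d, Grm2, Grm5, Grm8, Cacng2, Cacng3, Shisa9 and Neto1 did not pass within replicates 4 to 6. The AMPA receptor genes had medians of -0.38 in the first set and -0.55 in the second, NMDA genes -0.57 and -0.38, metabotropic genes -0.67 and -0.33, kainate and delta genes -0.18 and -0.10, and auxiliary and scaffold genes -0.42 and -0.30. No test was run of the difference between the sets. With the sets as a block over all libraries, 33 members were lower and 0 were higher in edgeR's test, beside 16.6% lower, 17.9% higher and 34.5% in either direction of tested genes, and Dlg4 (adjusted p = 0.0177) and Cacng8 (adjusted p = 0.0484) joined the calls.

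**Figure D4:**
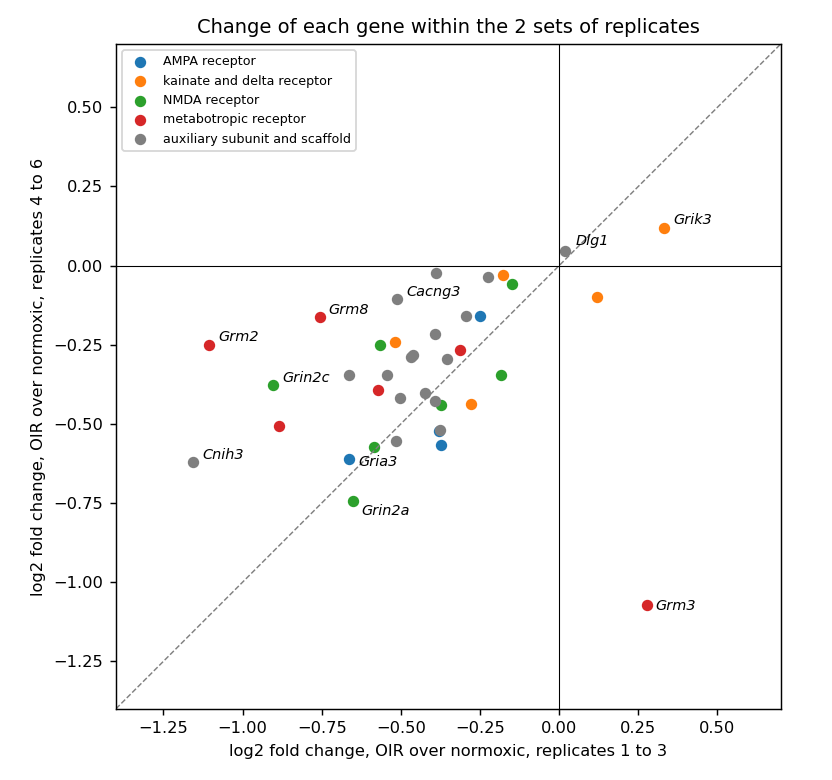
Log2 fold change of the 39 genes, OIR over normoxic, within replicates 1 to 3 (x axis) against replicates 4 to 6 (y axis), coloured by class; the dashed line marks equal values. Most genes lie in the lower left, Grm2 and Grm8 lie well above the line, and Grm3 is far below it with opposite signs.

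Glutamate receptor genes outside the 39 included Grm6 and Grik1, and both fell. Grm6, the receptor by which ON bipolar cells sense photoreceptor glutamate, measured 157, 189 and 197 CPM in OIR retina, against 275, 318 and 367 CPM in normoxic retina. Grm6 fell by 0.77 ± 0.07 on the log2 scale (SE, adjusted p = 1.78e-07) without overlap. Grik1, the GluK1 subunit used by OFF bipolar cells, measured 71.2, 82.5 and 89.3 CPM in OIR retina, against 107, 120.03 and 133 CPM in normoxic retina, and fell by 0.54 ± 0.07 (SE, adjusted p = 6.57e-06).

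The companion lists below are to be read beside the 14.8% of all tested genes called lower and the 16.2% called higher. Of 13 genes that assemble or traffic AMPA receptors, 12 fell and 1, Nsf, did not pass, with a median of -0.41. Frrs1l and Cpt1c, which act on AMPA receptors in the endoplasmic reticulum, fell by 0.52 ± 0.06 (adjusted p = 2.21e-06) and 0.55 ± 0.07 (adjusted p = 3.91e-06), and the endosomal protein Nsg2 fell by 0.57 ± 0.08 (adjusted p = 1.91e-05). Of 19 postsynaptic scaffold and kinase genes, 11 fell, 1 rose and 7 did not pass, with a median of -0.17. Shank1 and Shank2, master scaffolds of the postsynaptic density, fell by 0.65 ± 0.07 (adjusted p = 1.87e-06) and 0.37 ± 0.05 (adjusted p = 1.78e-05), and Homer2, which links Shank to group I metabotropic receptors, fell by 0.51 ± 0.07 (adjusted p = 3.18e-05). The 1 that rose was Lin7b, a small PDZ protein named here after its values were seen, at 0.91 ± 0.20 (adjusted p = 0.00157). Of 16 secreted or adhesive organisers of synapses, 13 fell, 1 rose and 2 did not pass, with a median of -0.35. Cbln2, a secreted partner of delta receptors, fell by 0.56 ± 0.09 (adjusted p = 7.38e-05), the neuroligin Nlgn3 by 0.39 ± 0.08 (adjusted p = 0.000751) and C1ql1 by 0.43 ± 0.09 (adjusted p = 0.00154). C1ql3, also named after its values were seen, was the 1 that rose, at 0.44 ± 0.11 (adjusted p = 0.00384). Of the 16 organisers, 13 were lower and 1 higher within replicates 1 to 3 (median -0.45), beside 18.6% and 20.3% of tested genes. Within replicates 4 to 6, 4 were lower and 0 higher (median -0.20), beside 8.36% and 11.6%. Over the 3 lists together, 34 of 48 genes were lower in the first set and 20 in the second. The difference between the sets was not tested.

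Markers of several neurons that carry these receptors were lower in OIR retina. Over all tested genes, 14.8% were called lower and 16.2% higher. All 7 amacrine cell markers fell, with a median of -0.43 and summed levels of 734 to 993 CPM in OIR libraries and 1117 to 1326 CPM in normoxic libraries. Of 8 bipolar cell markers 6 fell, with a median of -0.29 and sums of 1238 to 1335 CPM in OIR and 1475 to 1606 CPM in normoxic libraries. Of 8 ganglion cell markers 4 fell and 4 did not pass, with a median of -0.50 and overlapping sums of 548 to 790.1 CPM in OIR and 755 to 1080.4 CPM in normoxic libraries. Of 3 tested horizontal cell markers, 1 fell, and the sums were 101 to 141 CPM in OIR and 158 to 188 CPM in normoxic libraries. Rod markers summed to 40820.1 to 45849 CPM in OIR and 37646 to 42473 CPM in normoxic libraries, with 1 of 6 lower and a median of 0.05. Cone markers had 1 of 6 lower and a median of -0.06. For rods and cones alike that is 16.7%, near the share of all tested genes. Müller glia markers had 4 lower and 1 higher of 6. All 6 astrocyte, 6 endothelial and 5 pericyte markers and 6 of 7 microglia markers rose, with medians of 1.10, 1.41, 1.46 and 1.49. Lens crystallins and lens membrane genes summed to 1.35 to 9.002 CPM in OIR and 5.30 to 33.7 CPM in normoxic libraries, with 3 of 5 tested lower and Lim2 at 0 throughout. Within the replicate sets the neuronal lists gave other medians, and the difference was not tested. Of all tested genes, 18.6% were lower and 20.3% higher within replicates 1 to 3. Within replicates 4 to 6, 8.36% were lower and 11.6% higher. Ganglion cell markers had a median of -0.15 within replicates 1 to 3, with 4 lower and 1 higher, and of -0.64 within replicates 4 to 6, with 7 lower. Amacrine cell markers had medians of -0.66 in the first set and -0.24 in the second, bipolar cell markers -0.35 and -0.20, and horizontal cell markers -0.46 and -0.21. Cone markers had opposite signs in the sets, with a median of -0.38 and 4 of 6 lower within replicates 1 to 3, and a median of 0.35 and 4 of 6 higher within replicates 4 to 6. No other listed marker was at 0 in all libraries, and the part of cell composition in the receptor values was not tested.

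**Figure D5:**
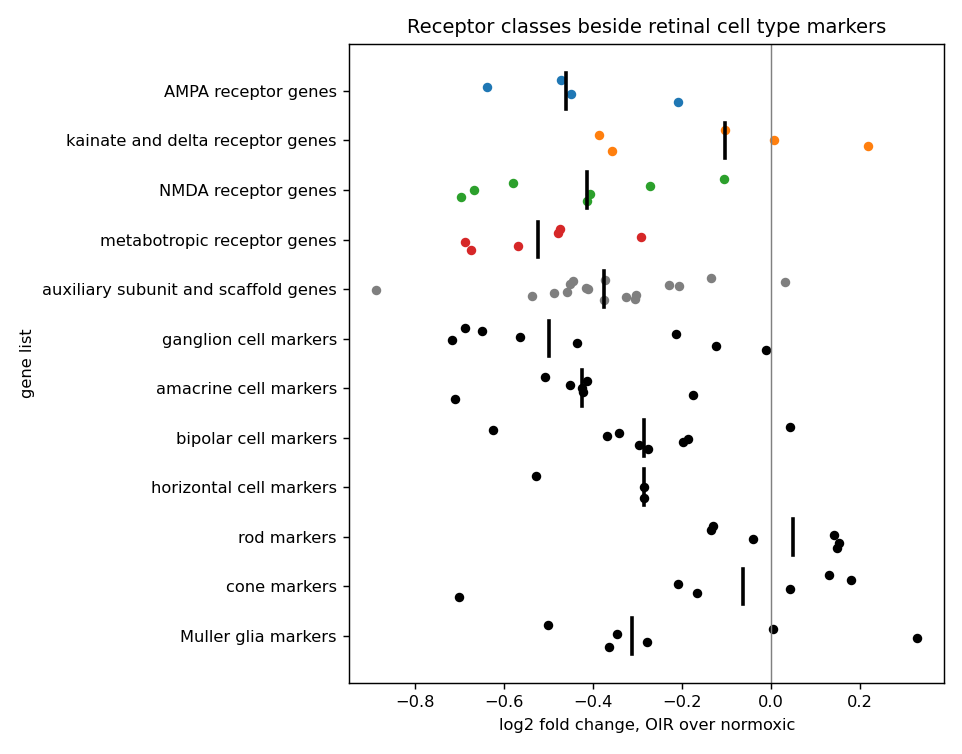
Log2 fold change, OIR over normoxic, of each tested gene (points) in the 5 receptor and auxiliary classes and in markers of 7 retinal cell types, with the median of each list (vertical bar). Over all libraries, the AMPA, NMDA and metabotropic medians are -0.46, -0.42 and -0.52, those of ganglion and amacrine cell markers -0.50 and -0.43, and that of rod markers 0.05; the ganglion, amacrine and cone medians differ between the replicate sets, which are pooled here.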

How the data were processed

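RNA was measured in 12 retina libraries, 6 OIR and 6 normoxic, grouped by the sample titles. Per the labels' protocols, TRIzol was used to extract RNA, and oligo-dT captured its poly-A fraction. The submitters' processing notes name HISAT2 version 2.0.5, Trimmomatic, HTSeq and build GRCm39, without roles. No source used here gives the annotation release, the strand setting or how gene length was chosen. Per the file headers, the 1 table from the authors holds raw counts and, for the same libraries, FPKM (fragments scaled by gene length and library depth). Gene positions are the table's.

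Counts of all 57073 gene models gave the library totals. edgeR version 4.0.16 (R version 4.3.3) was used with filterByExpr (minimum count 10, total 15), TMM scaling and the quasi-likelihood test, adjusted over 18275 genes by Benjamini-Hochberg with a threshold of 0.05. Adjusted p-values are edgeR's unless another tool is named. FPKM served only for sums, shares and limma version 3.58.1 on log2(FPKM + 1) or with a pseudocount of 0.1. DESeq2 version 1.42.0, other scalings and filters (among them a mean FPKM of 1 or more), blocks for replicate numbers or sets, each replicate set alone and leaving out each library were alternatives. Intervals are 95% intervals of the fit. The edgeR procedure was tested on simulated data.

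The 39 members, companion lists and marker lists were chosen with earlier results of these data known. Text gives values for all members past the threshold, estimates for the others, and the 3 companion genes per list with the smallest adjusted p. Some further receptor genes are not reported here. Of the horizontal cell markers, Sept4 had no entry under that name and Onecut1 did not pass the filter, nor did the lens genes Crygc and Lim2. Start-region sequences are RefSeq's on GRCm38.p6, another build than the table's, and were matched by symbol without moving coordinates between builds. Counts of 17361979 to 21594618 per library limit the precision of low genes such as Grm3, Grin3b and Cacng8.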

Additional observations from a re-analysis of the deposited data

Results flagged for a closer look

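Of 78 groups of 6 libraries, 1 per gene and condition, 4 held a library far from the others by Dixon's ratio (95% critical value), and chance gives about 1 in 20 such groups. Cacng8 had its highest OIR level in replicate 6, at 4.76 CPM, with the next at 2.67 CPM. Grm5 had its lowest normoxic level in replicate 3, at 16.9 CPM, with the next at 21.3 CPM. Shisa6 had its highest normoxic level in replicate 5, at 13.5 CPM, with the next at 11.6 CPM. Dlg2 had its highest normoxic level in replicate 2, at 272 CPM, with the next at 255 CPM. Removing the library in question gained the call of Cacng8, as given above, and ended none of the others.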

How the results depend on the processing

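Across 23 other settings, 21 of the 31 called members kept their call in every setting in which they were tested, and 0 of the 31 turned sign. The calls of 28 held in all 12 fits that left out a library. Those fits called 5072 to 5869 genes, 29 to 31 members lower and 0 to 0 higher, with class medians of -0.48 to -0.42 (AMPA), -0.14 to -0.08 (kainate and delta), -0.46 to -0.38 (NMDA), -0.57 to -0.48 (metabotropic) and -0.42 to -0.35 (auxiliary and scaffold). Replicates 4 to 6 alone called 3671 genes and gave medians of -0.55 (AMPA), -0.33 (metabotropic) and -0.30 (auxiliary and scaffold), and replicates 1 to 3 alone gave 1 member higher and medians of -0.38 (AMPA), -0.57 (NMDA) and -0.67 (metabotropic). With limma on log2(FPKM + 1), whose pseudocount shrinks low genes, the medians were -0.25 (NMDA), -0.35 (metabotropic) and -0.31 (auxiliary and scaffold). Requiring a group's mean FPKM to be 1 or more left 6 members untested, among them Grik4, and gave a kainate and delta median of -0.23.

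Signs turned only among genes that did not pass. Grik4 was at -0.0029 by library totals, at -0.10 within replicates 4 to 6 and at -0.072 (without normoxic replicate 1) to 0.11 (without normoxic replicate 2) when a library was left out. Grm3 was at 0.28 within replicates 1 to 3. Grin3b ran from -0.27 (without OIR replicate 4) to 0.023 (without OIR replicate 6). The causes were not tested.

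With the replicate number as a block, 5848 genes and 32 members lower were called, Shisa9 was lost (adjusted p = 0.085) and Cacng8 and Dlg4 were gained (adjusted p = 0.035 and 0.0389). Same-numbered libraries had correlations of -0.03 to 0.125 in their deviations from the group means, and 2 of 6 correlated best with their own number. These values gave no clear sign of pairing by number but cannot exclude it, and no label states a pairing.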
